A study of Mus musculus with 12 samples.

Results

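The Cd209 lectin family of the mouse was followed through single tumor-infiltrating myeloid cells. Its members here were the 5 genes Cd209a, Cd209b, Cd209d, Cd209f and Cd209g, out of 31053 genes in the count matrix. They were taken by name, and the cells they were read in were gated on raw counts of other genes, so that no Cd209 value placed a cell. The study profiled 12 samples by single-cell RNA sequencing on the 10x Genomics platform, from breast tumors of female C57BL/6 mice that all carried the MMTV-PyMT oncogene and received no further treatment. PyMT-PAR2 WT mice had normal protease-activated receptor PAR2, and PyMT-PAR2 G37I mice had a mutant receptor resistant to coagulation factor FXa signaling, with 3 samples for each genotype and cell selection. CD11c bead selection of late-stage tumors gave 1 matrix and CD4/CD8 bead selection of mid-size tumors the other. Both were thawed from frozen stocks, and the labels give no age.

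Cd209 proteins are C-type lectins, receptors that bind sugars on microbes and on the body's own glycoproteins through a calcium-dependent domain. The human family is known for DC-SIGN on dendritic cells (DCs), and the mouse genome holds an expanded set of related genes. Cd209a carries the DC-SIGN name in the mouse and is used as a marker of type 2 conventional DCs (cDC2) and of monocyte-derived DCs. Cd209b encodes SIGNR1, known from macrophages of the splenic marginal zone and lymph node, and Cd209d encodes SIGNR3. Cd209f and Cd209g are less studied and have been noted in resident tissue macrophages.

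All the Cd209 genes lie on chromosome 8 within 394.311 kb (GRCm38, GENCODE M21), each annotated as protein coding. In order from Cd209a they are Cd209a (chr8:3743397-3748984), Cd209e (chr8:3847965-3854309), Cd209d (chr8:3871824-3878555), Cd209b (chr8:3917655-3926844), Cd209c (chr8:3940222-3954746), Cd209f (chr8:4102787-4105835) and Cd209g (chr8:4134098-4137707). Cd209g is on the plus strand and the others are on the minus strand. The RefSeq starts of Cd209f and Cd209g are 28.972 kb apart and face away from each other, whereas those of Cd209a and Cd209f are 356.78 kb apart.

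Upstream sequences of 4 members are printed because the levels of Cd209f and Cd209g moved together in the cells below, apart from that of Cd209a, with Cd209d found in both settings. They are the stretches before the annotated 5′ UTR within RefSeq promoter windows of 300 bases (GRCm38.p6), read 5′ to 3′ on the gene's strand. They cover chr8:4105836-4106014 (minus), chr8:4134486-4134651 (plus), chr8:3878556-3878749 (minus) and chr8:3748985-3749234 (minus) in the order printed. The Cd209g stretch lies before its coding transcript but inside a longer transcript that GENCODE annotates as a retained intron. Capitals mark the letters TGANTCA (AP-1 type), CCGGAA (ETS core) and TATAAA on either strand.
Cd209f: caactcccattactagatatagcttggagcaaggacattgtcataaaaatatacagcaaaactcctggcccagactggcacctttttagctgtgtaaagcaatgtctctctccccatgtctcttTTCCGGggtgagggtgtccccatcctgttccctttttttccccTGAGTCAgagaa
Cd209g: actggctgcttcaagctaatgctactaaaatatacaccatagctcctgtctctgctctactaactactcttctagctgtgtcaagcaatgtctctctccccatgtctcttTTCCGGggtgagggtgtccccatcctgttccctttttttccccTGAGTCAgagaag
Cd209d: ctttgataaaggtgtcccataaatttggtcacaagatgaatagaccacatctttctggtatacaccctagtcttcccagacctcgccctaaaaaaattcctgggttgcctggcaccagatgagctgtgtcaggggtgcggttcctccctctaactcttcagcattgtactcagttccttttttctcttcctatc
Cd209a: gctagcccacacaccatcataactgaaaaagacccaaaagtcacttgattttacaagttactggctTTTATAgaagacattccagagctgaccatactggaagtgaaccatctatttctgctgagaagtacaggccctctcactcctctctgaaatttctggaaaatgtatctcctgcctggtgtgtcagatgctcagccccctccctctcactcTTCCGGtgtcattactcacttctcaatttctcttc
The windows of Cd209f and Cd209g shared an identical run of 180 bases, which reaches from 154 bases before to 26 bases after the start in Cd209f and of which the printed parts hold 83 and 84 bases. In the other 20 pairs among the 7 Cd209 genes the longest shared run was 7 to 17 bases. The AP-1 type letters occurred in the windows of Cd209f and Cd209g and in none of the other 5 Cd209 windows, against 7.81% of 32851 mouse promoter windows of the same length. The ETS core letters occurred in the windows of Cd209a, Cd209b, Cd209e, Cd209f and Cd209g (14.9% of all windows), and TATAAA in those of Cd209a, Cd209f and Cd209g (13.6%), in the latter pair within the part that is not printed. All matches in the Cd209f and Cd209g windows lie inside their shared run of 180 bases, so they are not independent in this pair. The marked letters overlap none of each other in the printed stretches, and a match is a description of the sequence, not a binding site.

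**Figure D1:**
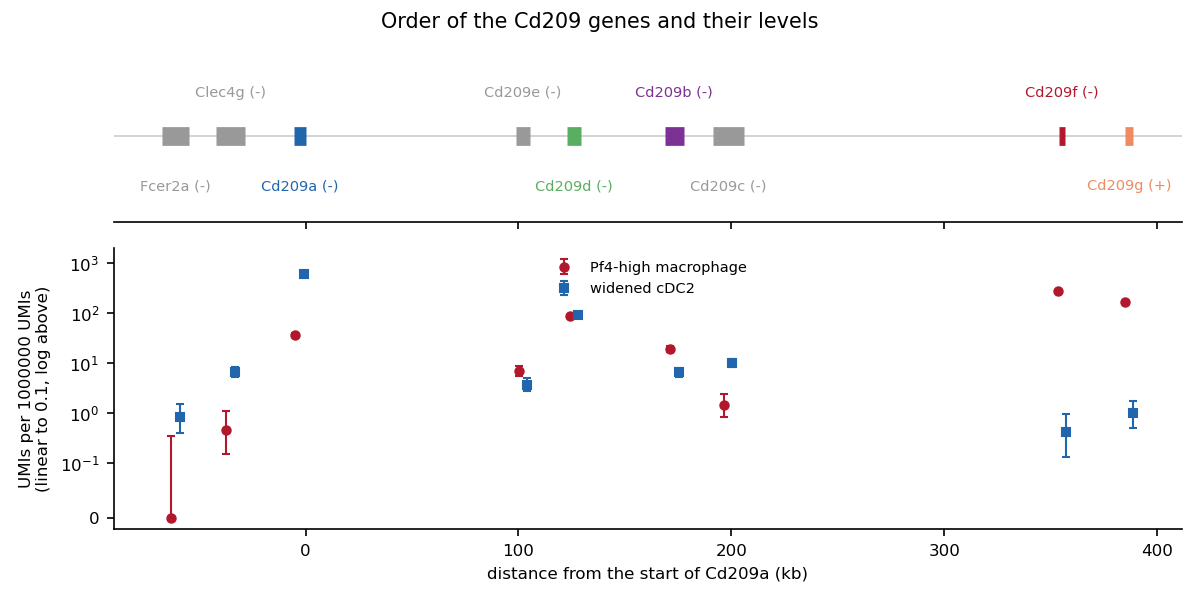
Order of the Cd209 genes and their neighbours Clec4g and Fcer2a, drawn to scale by distance from the start of Cd209a in kb with the strand in brackets (top), and the level of each gene in UMIs per 1000000 UMIs in Pf4-high macrophages and in the widened cDC2 gate (bottom; axis linear to 0.1 and log above; bars are exact Poisson 95% intervals). Cd209a is high in the widened cDC2 gate, Cd209f and Cd209g at the far end of the cluster are high in Pf4-high macrophages, and Cd209d is at 85.1 and 92.0 in these gates.

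The CD11c-selected matrix held 11980 barcodes, of which 9429 passed 200 genes and 2000 unique molecular identifiers (UMIs, counts of captured RNA molecules), with a median of 10014 UMIs per cell. Neither matrix names the sample of a cell, so each was treated as 1 sample, genotypes were not compared and no p-value is given. The barcode list of each runs 6 times through the alphabet. These 6 barcode runs cannot be linked to samples and serve only to show the spread. Run 4 stands apart in the CD11c-selected matrix, with 360 barcodes and 13314063 UMIs against up to 2859 barcodes and 24245504 UMIs. In the matrix 76 barcodes occurred in more than 1 run. Levels are summed UMIs per 1000000 UMIs of a population, with exact Poisson 95% intervals that cover counting error only, and they compare populations for 1 gene, not genes with each other.

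Macrophages were cells with complement C1q transcripts (5663 cells), split by the chemokine gene Pf4 at 10 UMIs per 10000 UMIs into 967 Pf4-high and 4696 Pf4-low cells. Fn1/Ccr2 myeloid cells (431) carried Fn1 and the monocyte chemokine receptor Ccr2 without C1q, cDC2 (155) carried the DC genes Flt3 or Zbtb46, cDC1 (325) carried Xcr1, and migratory DCs (186) carried Ccr7 and Fscn1. Further marker genes were read in these gates, and not all followed the names. Adgre1, which encodes the macrophage antigen F4/80, was at 544 and 339 UMIs per 1000000 in Pf4-high and Pf4-low macrophages against 25.5 in cDC2. Clec9a was at 191 in cDC1, whose gate did not use it, while the cDC2 gate allowed at most 1 UMI of it per cell. Of genes no gate used, Ccl22 was at 1912 in migratory DCs, Retnla at 5744 in Fn1/Ccr2 cells and Cd7 at 97.0 in cDC2. Clec10a was lower in cDC2 than in Pf4-high macrophages (232 against 468), and Itgax lower than in Pf4-low macrophages (208 against 286). Mgl2 was at 769 in cDC2 and 653 in Fn1/Ccr2 cells. The cDC2 gate was strict. After the data were seen, 403 cells with Ccr7 but little Fscn1 (Ccr7+ Fscn1-low) and 574 MHC-II-high cells with little Flt3 and Zbtb46 were added to it as a widened cDC2 gate of 1132 cells, which is not a cell type name. The second of these additions had the monocyte genes Ccr2 at 420 and Ly6c2 at 75.0, against 273 and 30.0 in the strict gate.

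Cd209f was a macrophage transcript in these cells. Pf4-high macrophages held 3026 of its 3963 UMIs, a level of 274 (264–283) UMIs per 1000000, and Pf4-low macrophages held 867, a level of 15.9 (14.8–17.0). Over the barcode runs the lowest, median and highest levels were 137, 188 and 562 in Pf4-high and 1.65, 12.1 and 83.6 in Pf4-low macrophages, and run 4 was highest in both. Every run had the higher level in Pf4-high cells, and the ranges of the gates over runs did not overlap. The level was 17.2-fold (16.0–18.6) higher in Pf4-high than in Pf4-low macrophages, 20.2-fold without run 4, 9.11-fold with the gate thresholds doubled and 30.1-fold with them halved. All ratios carry exact conditional binomial 95% intervals of the counts.

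Outside macrophages Cd209f was barely detected. It had 1 UMI in Fn1/Ccr2 cells, 1 in cDC2 (0.5 UMIs per 1000000), 1 in cDC1 and 0 in migratory DCs, where a count of 0 allows up to 1.38 UMIs per 1000000. T cells, which should lack the gene, had 0 UMIs in the 59 cells of this matrix. In the CD4/CD8-selected matrix Cd209f was detected in 0.0354% of 16954 T cells at a median of 4753 UMIs. The 369 Pf4-high macrophages of that matrix had it in 16.0% at a median of 20757 UMIs. Those of the CD11c-selected matrix had it in 21.0% at a median of 9033 UMIs. The Pf4-high level was 547-fold that of cDC2, with an interval from 98.1 upward because cDC2 held a single UMI.

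Cd209g had a similar distribution. Of its 2354 UMIs, 97.4% were in macrophages (98.2% for Cd209f). Its level was 164 (157–172) UMIs per 1000000 in Pf4-high macrophages, with 86.8, 123 and 313 as the lowest, median and highest of the runs, and 8.73 (7.96–9.55) in Pf4-low macrophages, with 2.24, 6.37 and 43.6. Run 4 was again the highest in both, and the ranges did not overlap. The difference was 18.8-fold (17.0–20.8), 22.5-fold without run 4 and 9.16-fold and 27.3-fold with gate thresholds doubled and halved. Cd209g had 4 UMIs in Fn1/Ccr2 cells and 0 in cDC2, which puts the Pf4-high level at least 109-fold higher than in cDC2 at a floor of 3 counts over the population.

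Cd209b, the SIGNR1 gene, was rarer, with 432 UMIs in all and 74.1% of them in macrophages. It was at 18.4 (16.0–21.2) UMIs per 1000000 in Pf4-high and 2.12 (1.75–2.55) in Pf4-low macrophages, an 8.69-fold (6.88–11.0) difference. Run 4 carried much of the Pf4-low level, at 17.7 against a median of 0.58 over the runs, and without it the difference was 26.1-fold. With the 5% of cells highest in UMIs left out it was 24.3-fold. In cDC2 the level was 18.0 (12.6–24.9) from 36 UMIs and 7 cells of run 4 were the highest at 81.6, while 2 runs were at 0. Pf4-high macrophages and cDC2 differed 1.02-fold for Cd209b, with an interval of 0.716 to 1.50. Without run 4 the levels were 15.2 and 7.57, and the difference was 2.01-fold (1.13–3.88). Without run 1, 2 or 6 cDC2 were the higher, at 20.9, 20.6 and 22.1 against 18.3, 18.5 and 19.0. No Cd209b UMI was seen in 325 cDC1.

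Cd209d, the SIGNR3 gene, was shared between macrophages and DCs. It was at 141 (125–158) UMIs per 1000000 in cDC2, 85.1 (79.7–90.7) in Pf4-high macrophages, 46.4 (41.9–51.2) in Fn1/Ccr2 cells and 10.4 in Pf4-low macrophages. Macrophages held 44.6% of its 3383 UMIs and the widened cDC2 gate 33.6%. Over the runs it ranged widely in cDC2 (19.1, 138 and 331 as lowest, median and highest) and in Pf4-high macrophages (38.1, 63.4 and 158), but narrowly in Fn1/Ccr2 cells (38.8, 46.0 and 59.3). The ranges in cDC2 and Fn1/Ccr2 cells overlapped, and cDC2 were higher in 4 of 6 runs. Pf4-high macrophages were 8.20-fold (7.38–9.12) higher than Pf4-low macrophages, in every run, but 3.90-fold with the gate thresholds doubled. cDC1 and migratory DCs had little Cd209d, at 4.71 and 1.85 UMIs per 1000000. Run 4 held most of the cDC1 signal, and without it cDC1 were at 0.566.

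Cd209a was the DC member. Its level was 552 (520–586) UMIs per 1000000 in cDC2, with 331, 550 and 790 as the lowest, median and highest run, and 111 (104–119) in Fn1/Ccr2 cells, with 80.9, 94.5 and 214. The runs of these gates did not overlap, and cDC2 were 4.95-fold (4.54–5.41) higher. It was 732 (708–756) in the Ccr7+ Fscn1-low cells and 515 (496–534) in the MHC-II-high cells with little Flt3 and Zbtb46, so that the widened cDC2 gate, at 609 (595–623), held 64.5% of its 11647 UMIs and the strict gate 9.48%. Macrophages had the gene at a low level, 35.9 (32.4–39.6) in Pf4-high and 12.3 in Pf4-low cells, a 2.93-fold (2.58–3.32) difference seen in every run.

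Cd209a separated cDC2 from cDC1 and from migratory DCs. cDC1 were at 10.6 UMIs per 1000000, with 73.2 in run 4 and at most 12.2 in the other runs, and cDC2 were 52.1-fold (40.4–68.3) higher. Without run 4 cDC1 were at 3.02 and cDC2 179-fold (110–315) higher. Migratory DCs, which have switched on Ccr7 and Fscn1, were at 41.5 (33.4–51.1), with run values from 0 to 126 and as few as 2 cells in a run. The Ccr7+ Fscn1-low cells, which carry Ccr7 as well, were 17.6-fold (14.3–22.0) above migratory DCs for Cd209a and 42.5-fold (16.5–157) for Cd209d. Run 1 held 60 of the 90 Cd209a UMIs of migratory DCs, and without it they were at 17.8 and the Cd209a difference was 40.4-fold (28.2–60). The Cd209d difference rests on 4 UMIs in migratory DCs and was 73.2-fold without run 6. Epcam-positive cells, gated as tumor cells, had Cd209a at 153 where MHC-II was high and at 1.77 where it was low. The MHC-II-high ones also carried the DC genes Itgax (324), Flt3 (119) and Ccr7 (297). T cells in the CD4/CD8-selected matrix were at 0.163 UMIs per 1000000.

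**Figure D2:**
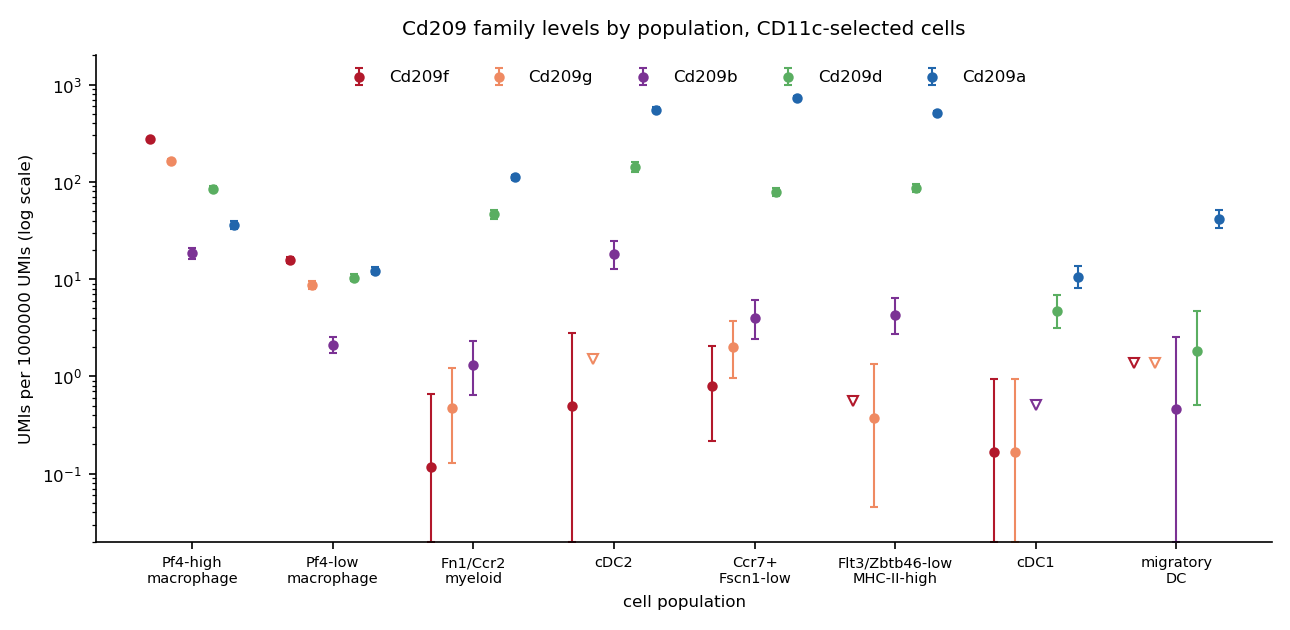
Level of each member in UMIs per 1000000 UMIs (log scale) in 8 populations of CD11c-selected cells; points are summed counts, bars exact Poisson 95% intervals, and open triangles the limit that a count of 0 allows. Cd209f and Cd209g sit at 274 and 164 in Pf4-high macrophages and at 2.00 or less in every gate outside macrophages. Cd209a sits at 515 to 732 in cDC2 and the gates added to it.

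**Figure D3:**
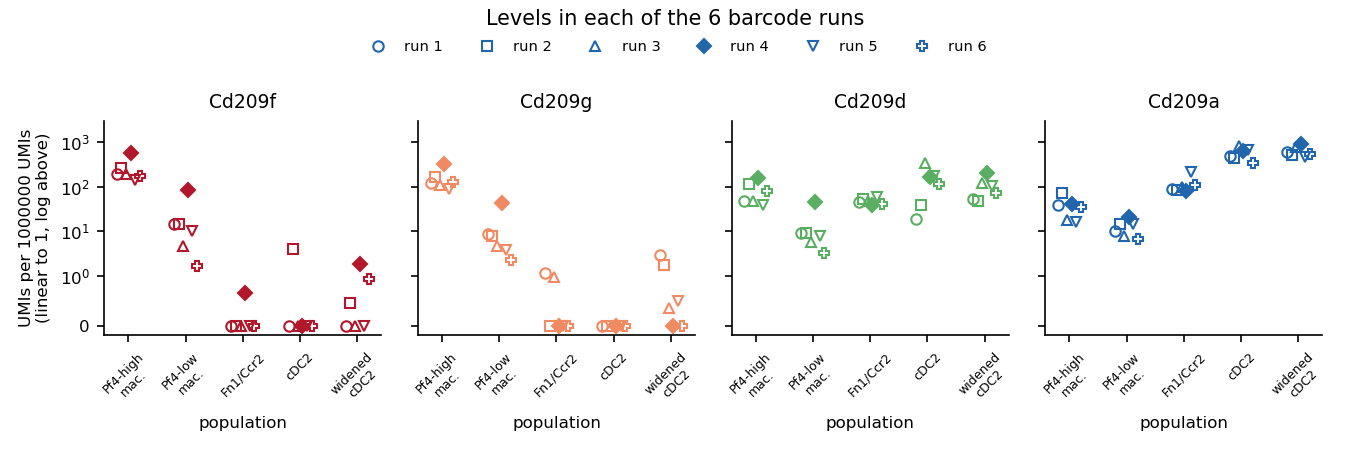
Levels of Cd209f, Cd209g, Cd209d and Cd209a (UMIs per 1000000 UMIs, linear to 1 and log above) in each of the 6 barcode runs, 1 symbol per run with run 4 filled. Run 4 is the highest for Cd209f and Cd209g in both macrophage gates, and Cd209a rises in the order Pf4-low, Pf4-high, Fn1/Ccr2 and cDC2 in all 6 runs.

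Counts of members were read against all genes. Of the 5 members, 4 were at least 4-fold higher in Pf4-high than in Pf4-low macrophages, against 2.28 percent of 12811 genes with at least 20 UMIs. Between cDC2 and Fn1/Ccr2 cells, 3 members had enough UMIs and 2 (Cd209a and Cd209b) were at least 4-fold higher in cDC2, against 4.55 percent of genes. Over cDC1 it was 3 of 3 (5.27 percent of genes), over migratory DCs 3 of 3 (6.25 percent), and for the Ccr7+ Fscn1-low cells over migratory DCs 3 of 3 (4.68 percent). Fn1/Ccr2 cells compared with Pf4-low macrophages split the family. Cd209a was 9.09-fold (8.23–10.1) and Cd209d 4.47-fold (3.92–5.10) higher (2 of 5, 2.46 percent of genes), and Cd209f was 134-fold (24.0–5300) and Cd209g 18.4-fold (7.15–67.9) lower (2 of 5, 8.36 percent). Without run 4 the Cd209d difference was 6.87-fold and that of Cd209g 9.16-fold lower, the single Cd209f UMI of Fn1/Ccr2 cells was gone, and Cd209b was 5.83-fold higher in cDC2 than in Fn1/Ccr2 cells. Between Pf4-high macrophages and cDC2, Cd209f and Cd209g were higher (2 of 5, 8.12 percent) and Cd209a was 15.4-fold lower (1 of 5, 4.36 percent).

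Within CD11c-selected macrophages Cd209f and Cd209g rose with Pf4 up to a rate of 40. Cells were binned by Pf4 UMIs per 10000 UMIs. Cd209f was at 1.25 UMIs per 1000000 in 2764 cells without Pf4, 43.3 at a Pf4 rate of 2.5 to 5, 218 at 10 to 20, 360 at 20 to 40 and 186 in the 85 cells at 40 or more. Cd209g went from 0.983 to 213 over the same bins and was at 107 in the highest. Cd209a did not follow this course at low Pf4, with 14.6 in cells without Pf4, 6.73 at 2.5 to 5 and 41.6 at 10 to 20, and Cd209d was at 5.29, 19.4 and 101. The highest level of Cd209f and Cd209g was in the bin of 20 to 40, not in the bin above it. In CD4/CD8-selected macrophages the course was uneven. Cd209f was at 48.7 at a Pf4 rate of 2.5 to 5, 24.4 at 5 to 10 and 114 at 10 to 20, and Cd209g was at 19.5, 7.64 and 48.1.

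**Figure D4:**
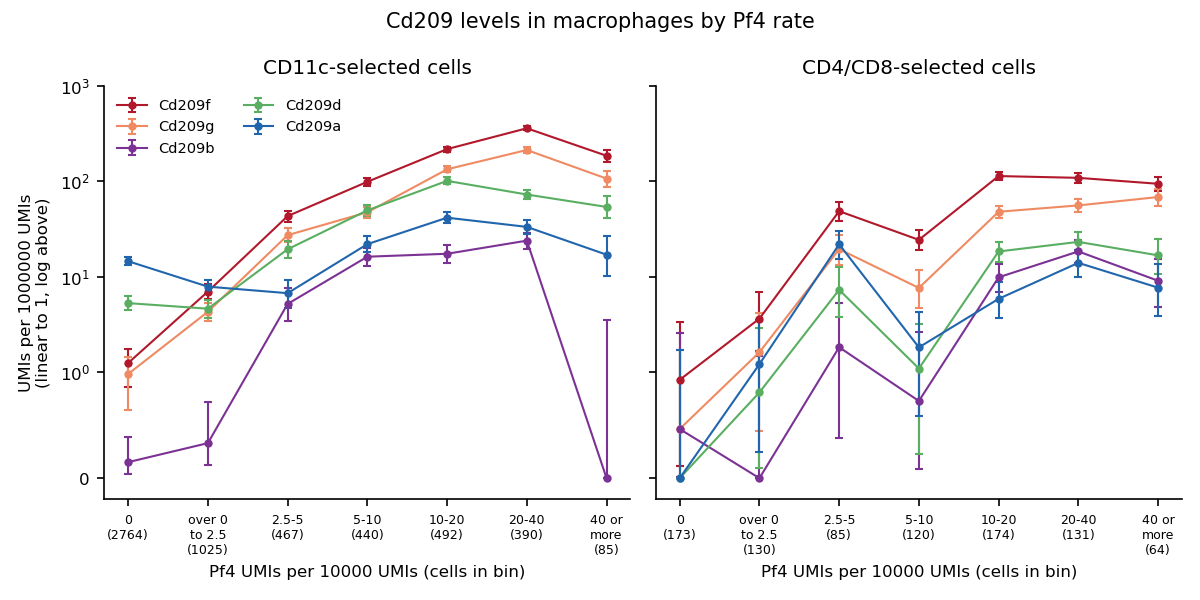
Level of each member (UMIs per 1000000 UMIs, linear to 1 and log above, exact Poisson 95% intervals) in macrophages binned by Pf4 UMIs per 10000 UMIs, in CD11c-selected (left) and CD4/CD8-selected cells (right), with cells per bin in brackets. In CD11c-selected cells Cd209f climbs from 1.25 without Pf4 to 360 at a Pf4 rate of 20 to 40 and is at 186 in the 85 cells above that.

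The macrophages of the CD4/CD8-selected matrix gave a second reading. Pf4-high macrophages there (369 cells, 264 of them in 1 run) had Cd209f at 109 and Pf4-low macrophages (508 cells) at 17.5 UMIs per 1000000, a 6.20-fold (5.23–7.39) difference. Cd209g was 8.48-fold (6.44–11.4), Cd209d 10.5-fold (6.38–18.5), Cd209b 19.3-fold (8.57–53.8) and Cd209a 1.87-fold (1.27–2.78) higher. All 5 were higher in Pf4-high cells in every run, and 4 of 5 passed 4-fold, against 0.312 percent of 10900 genes. The runs of Pf4-high cells spread from 13.8 to 1804 UMIs per 1000000 for Cd209f with as few as 3 cells in a run, and single runs set these values. Without run 2 the Cd209f difference was 3.39-fold (2.76–4.18), below 4-fold, and without run 3, which held the 264 cells, it was 19.8-fold (16.7–23.6). Leaving out 1 run moved Cd209g between 4.89-fold and 26.4-fold, Cd209d between 5.60-fold and 28.1-fold and Cd209b between 8.90-fold and 57.3-fold, and Cd209a was 5.63-fold without run 3 and 4.64-fold without run 5.

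Few cells carried most of the signal. In Pf4-high macrophages 203 of 967 cells had a Cd209f UMI, with a median of 7 and a maximum of 221, and the 123 cells with 5 or more held 94.3% of its UMIs there. For Cd209g 107 such cells held 88.3%. No member was detected in 685 of the 967 cells (70.8%), while 33 cells (3.41%) had all 5. Across the whole matrix 157 cells had 5 or more Cd209f UMIs, and 123 of these were Pf4-high, 30 Pf4-low macrophages and 4 elsewhere. Of 643 cells with 5 or more Cd209a UMIs, 191 were Ccr7+ Fscn1-low, 152 were MHC-II-high cells with little Flt3 and Zbtb46, 60 were Fn1/Ccr2, 56 cDC2, 44 Pf4-low macrophages, 30 cells of the tumor gate, 28 Pf4-high macrophages, 3 cDC1, 3 migratory DCs and 76 elsewhere.

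To compare detection across cells of different depth, each cell was thinned to 2000 UMIs at random. Cd209f was then detected in 15.5% (13.3–17.9) of Pf4-high macrophages (21.0% unthinned), Cd209g in 13.2%, Cd209d in 7.14%, Cd209a in 4.34% and Cd209b in 1.86%, with exact Clopper-Pearson 95% intervals. In cDC2 Cd209a was detected in 39.4% (54.8% unthinned) and Cd209d in 11.6%, and Cd209f and Cd209g in 0 of 155 cells. The draw matters for these small sets. Over 10 draws Cd209d in cDC2 lay between 7.10% and 11.6%, Cd209a in Fn1/Ccr2 cells between 11.1% and 15.3% and Cd209b in Pf4-high macrophages between 1.86% and 3.21%. Fn1/Ccr2 cells had Cd209a in 11.1% (36.7% unthinned, at a median depth of 17243 UMIs) and Cd209d in 7.42%. Ccr7+ Fscn1-low cells had Cd209a in 54.1% and migratory DCs in 1.61%. Unthinned T cells of the CD4/CD8-selected matrix had Cd209a in 0.0531%.

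Members were detected in the same macrophages. In thinned Pf4-high cells Cd209g was found in 57.3% (49.0–65.4) of the 150 Cd209f-positive cells and in 5.14% (3.73–6.89) of the others, an 11.2-fold ratio that lay between 10.3 and 14.9 over 10 thinning draws. Cd209d was found in 29.3% of Cd209f-positive cells and 3.06% of the others. Among Cd209a-positive Pf4-high cells, 31 of 42 (73.8%, 58.0–86.1) had Cd209f, against 12.9% of the others, and 64.3% (48.0–78.4) had Cd209d, against 4.54%. Most Cd209a-positive macrophages were Pf4-low, however. Of those, 10 of 59 (16.9%, 8.44–29.0) had Cd209f, against 0.992% of the other Pf4-low cells, so that over all macrophages the share was 40.6% (30.9–50.8). In the Pf4-high macrophages of the CD4/CD8-selected matrix Cd209g was in 73.3% of 45 Cd209f-positive cells and 3.40% of the others.

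Some of the Cd209f and Cd209g reads may not separate the genes. Their transcripts share 334 stretches of 90 bases, 26.9% of those in Cd209f and 30.9% of those in Cd209g, while no other pair of Cd209 transcripts shares any. In the last 600 bases none of 42 ordered pairs shares even a stretch of 50 bases. Which end of the transcripts was read is not given in the sources used here, and the part of shared reads in the joint detection of Cd209f with Cd209g was not tested. The joint detection of Cd209f with Cd209d and with Cd209a involves no shared stretch of that length.

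In the widened cDC2 gate and in Fn1/Ccr2 cells Cd209a was accompanied by Cd209d and not by the other pair. In the widened cDC2 gate Cd209d was found in 14.8% (11.6–18.4) of 454 Cd209a-positive cells and 2.80% of the others, a 5.27-fold ratio, and 77.9% of Cd209d-positive cells had Cd209a. Cd209f and Cd209g were each found in 1 of the 454 Cd209a-positive cells (0.22%). In Fn1/Ccr2 cells Cd209d was found in 10 of 48 Cd209a-positive cells (20.8%) and 5.74% of the others, a ratio of 3.63 that lay between 2.89 and 6.70 over the draws, and Cd209f and Cd209g in none of the 48. At the same thinned depth, Cd209f was in 73.8% of Cd209a-positive Pf4-high macrophages, 16.9% of Cd209a-positive Pf4-low macrophages and 0.22% of Cd209a-positive cells of the widened cDC2 gate.

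**Figure D5:**
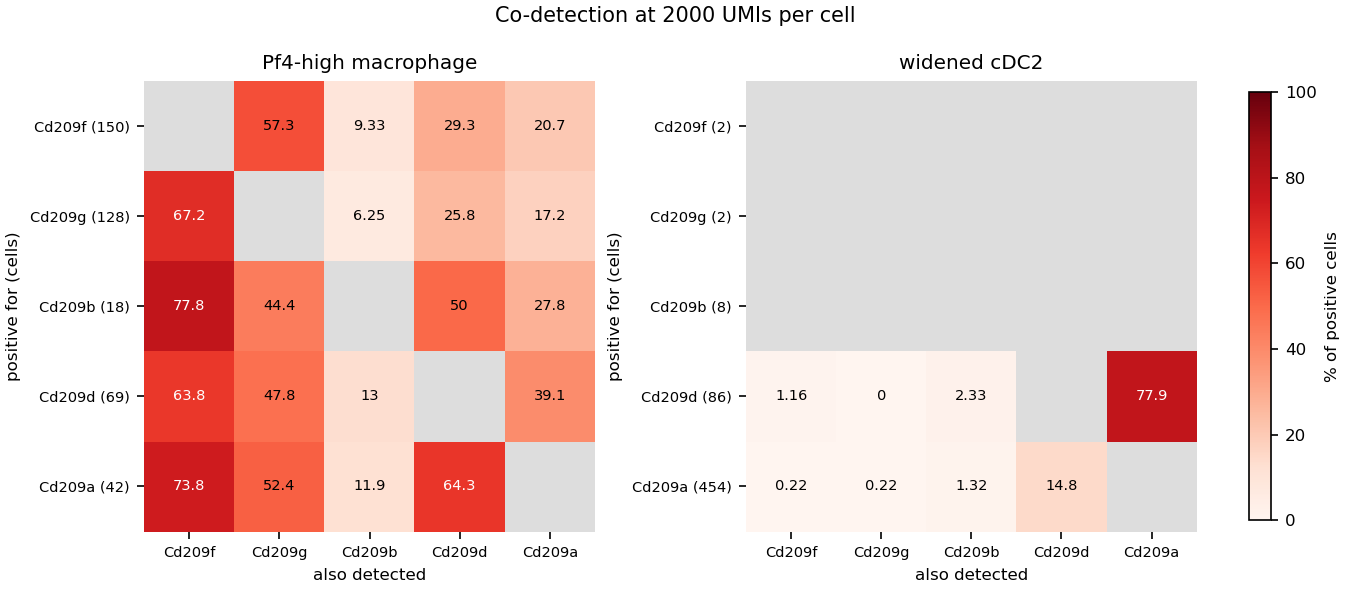
Percent of the cells positive for 1 member (rows, with their number in brackets) in which another member (columns) was also detected, after thinning to 2000 UMIs, in Pf4-high macrophages and in the widened cDC2 gate. Rows with too few positive cells and the diagonal are grey. In Pf4-high macrophages 57.3% of Cd209f-positive cells had Cd209g and 73.8% of Cd209a-positive cells had Cd209f, against 0.22% of Cd209a-positive cells in the widened cDC2 gate.

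Resident-type macrophage genes went with the macrophage members. The median of 12 such genes was 9.39-fold in Pf4-high over Pf4-low macrophages, against 1.00 over all genes. Of them, 10 were at least 4-fold higher, against 2.28 percent of 12811 genes. They included the hyaluronan receptor gene Lyve1 (28.4-fold), the haemoglobin scavenger receptor gene Cd163 (19.1-fold), the phosphatidylserine receptor gene Timd4 (10.7-fold, though at 7.05 UMIs per 1000000 in Pf4-high macrophages against 57.0 in cDC1 and 27.0 in cDC2) and the folate receptor gene Folr2 (8.07-fold), while Selenop (3.81-fold) and Stab1 (1.86-fold) were below 4-fold. In the CD4/CD8-selected matrix 3 of 12 passed, against 0.312 percent of 10900 genes, with a median of 2.39-fold. The median of 15 other C-type lectins with enough UMIs in the CD11c-selected matrix was 1.26-fold. Of these, Clec10a (7.88-fold) and the mannose receptor gene Mrc1 (6.16-fold, also in the resident-type list) were at least 4-fold higher (2.28 percent of all genes were). Cd207, Clec1b and Clec9a were at least 4-fold lower (2.54 percent of all genes were). Col1a1, a fibroblast collagen gene, was also higher in Pf4-high macrophages (40.8 against 2.07 UMIs per 1000000), and its part in these levels was not tested.

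The same genes were followed inside the Pf4-high gate. Thinned Cd209f-positive cells had 4.26-fold (3.20–5.67) more UMIs of the ficolin gene Fcna and 3.57-fold (2.76–4.61) more of Cd163 than Cd209f-negative cells, and less of the MHC-II gene H2-Ab1 (0.55-fold, 0.507–0.595), of Ccr2 (0.457-fold) and of the CD11c gene Itgax (0.272-fold, 0.0546–0.835). Cd209g-positive cells had Fcna at 4.64-fold, Cd163 at 3.47-fold and H2-Ab1 at 0.693-fold. Cd209a-positive Pf4-high macrophages showed a similar composition, with Fcna at 4.23-fold (2.82–6.16), Clec10a at 2.53-fold and H2-Ab1 at 0.558-fold of Cd209a-negative Pf4-high macrophages. Stab1 of the same list went the other way, at 0.714-fold (0.561–0.899) with Cd209f and 0.778-fold (0.605–0.989) with Cd209g. In cDC2 Clec10a was 5.35-fold (3.08–9.79), the related lectin gene Mgl2 4.49-fold (3.05–6.76) and Mrc1 4.50-fold (2.35–9.22) higher in the 61 Cd209a-positive cells, and Fcna had no UMI in either set. In Cd209a-positive Pf4-high macrophages Mgl2 was 1.55-fold (1.08–2.18) and Mrc1 1.51-fold (1.32–1.72) higher. Cd209a-positive Fn1/Ccr2 cells had Clec10a at 2.96-fold (1.44–5.74) and Mgl2 at 1.77-fold (1.42–2.18). The other cDC2 or monocyte genes were mixed there. Kmo (7.98-fold, 1.84–34.7, from 5 UMIs in each set), Itgax (1.76-fold, 1.07–2.79) and H2-Ab1 (1.15-fold, 1.07–1.24) were also higher in Cd209a-positive cells. Itgam (0.816-fold, 0.548–1.18), Sirpa (0.958-fold, 0.599–1.47) and Ccr2 (0.809-fold, 0.598–1.07) were not.

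Across all genes, those with the largest positive-to-negative ratio depended on the thinning draw. Fcna was among the top 5 for Cd209f in 10 of 10 draws and for Cd209g in 9 of 10. The complement gene C6 and Lrg1 were each among them in 7 draws for Cd209f, and Fgfr1 in 5. The draw used here put Hyal1 (6.41-fold), Gfra2 (4.86-fold) and Fosl1 (3.79-fold) beside Fcna and Fgfr1 (3.80-fold) for Cd209f, each of the former in 1 of 10 draws. For Cd209g it gave Fcna, Fgfr1 (3.74-fold), Gfra2 (3.66-fold), Cd163 and Kank2 (3.08-fold), of which Cd163 recurred in 4 draws and Fgfr1, Gfra2 and Kank2 in 2. For Cd209a in cDC2 none of the leading genes recurred in more than 4 draws.

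The other genes of the cluster were sparse. Cd209e (178 UMIs in all) was at 6.78 (5.33–8.50) UMIs per 1000000 in Pf4-high and 0.622 in Pf4-low macrophages and at 5.50 (2.75–9.84) in cDC2. Cd209c (198 UMIs) had its highest levels in the DC gates, with 11.2 (8.46–14.5) in Ccr7+ Fscn1-low cells against 1.45 in Pf4-high macrophages. Clec4g, the lectin gene beside Cd209a, was at 6.48 (5.14–8.06) in the widened cDC2 gate and 0.452 in Pf4-high macrophages.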

How the data were processed

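The 12 samples were profiled by 10x Genomics single-cell RNA sequencing. The authors deposited gene by cell matrices of raw UMI counts, 1 for CD11c-selected and 1 for CD4/CD8-selected cells. Cell Ranger 3.0.2 and the mm10 build are named in the submitters' processing notes. No cell is linked to a sample, so 4 groups of 3 samples could not be compared.

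Cells with at least 200 genes and 2000 UMIs were gated on marker UMIs (C1q genes at 20, Pf4 at 10 and Fn1 at 10 UMIs per 10000). The other gate genes were Xcr1, Clec9a, Siglech, Ccr2, Ccr7, Fscn1, Flt3, Zbtb46, Cd3d, Cd3e, Epcam and H2-Ab1. The Ccr7+ Fscn1-low, MHC-II-high (H2-Ab1 at 50 or more per 10000) and split Epcam-positive populations were added after the data were seen. Levels are summed UMIs per 1000000 UMIs. A gene was called at 4-fold where both populations together held at least 20 UMIs. Detection used cells thinned to 2000 UMIs (seed 1). Depth was 121307755 UMIs in the CD11c-selected and 132259743 in the CD4/CD8-selected cells kept. PCR duplicates are removed by UMIs, and intervals and floors (3 counts) cover counting error only. Doublets were not called. Leaving out the 5% of cells highest in UMIs was tried instead. Other alternatives changed the minimum UMIs, the gate thresholds, the weighting of cells, mitochondrial cells, thinning depth and barcode runs. The widened gate, leaving out repeated barcodes and further thinning draws were added after the data were seen. Genes named as accompanying a member were the 5 with the largest ratio among genes detected in at least 10% of positive cells, and gene lists are printed as counts. The members, lists and tests were chosen with earlier results of these data known. Scripts used Python 3.11.15, numpy 2.4.6, scipy 1.17.1 and pandas 2.3.3, and were checked on simulated counts. Sequences came from RefSeq (GRCm38.p6) and positions from GENCODE M21 (GRCm38). All 5 members matched by symbol.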

Additional observations from a re-analysis of the deposited data

Results flagged for a closer look

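Levels of 9 pairs of gene and population were checked over the 6 barcode runs for a run far from the others by Dixon's criterion, which flags about 1 in 20 groups by chance. Cd209f in Pf4-high macrophages was at 562 UMIs per 1000000 in run 4, against at most 255 in the other runs. Cd209g in Pf4-high macrophages was at 313 in run 4, against at most 162. Cd209a in Fn1/Ccr2 myeloid cells was at 214 in run 5, against at most 109.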

How the results depend on the processing

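No alternative reversed the direction of the Cd209f, Cd209g, Cd209a and Cd209d ratios given below. Leaving out a run did reverse ratios of Cd209b levels. The Cd209b ratio of Pf4-high macrophages to cDC2 (1.02) was 0.876, 0.895 and 0.859 without run 1, 2 and 6. The Cd209b ratio of Fn1/Ccr2 cells to Pf4-low macrophages (0.613) was 2.23 without run 4. The intervals of these reversed ratios all included 1. Of the planned and added alternatives other than leaving out runs, 35 values of the main results stayed within their spread and 17 moved. The Cd209f level in Pf4-high macrophages (274) was 285 with a minimum of 5000 UMIs, 334 and 219 with gate thresholds doubled and halved, 236 without the 5% of cells highest in UMIs, 218 as a mean over cells, and 186 to 302 leaving out 1 run (186 without run 4). The Cd209a level in cDC2 (552) was 506 as a mean over cells, 609 in the widened gate and 498 to 602 leaving out 1 run. The Pf4-high over Pf4-low ratio of Cd209f (17.2) was 9.11 and 30.1 with thresholds doubled and halved, 14.4 as a mean over cells and 15.1 to 20.2 leaving out 1 run, and that of Cd209g (18.8) was 9.16, 27.3, 16.2 and 16.6 to 22.5. The cDC2 over Fn1/Ccr2 ratio of Cd209a (4.95) was 6.68 and 4.51 with thresholds doubled and halved, 4.52 as a mean over cells, 5.46 with the widened gate and 4.31 to 5.71 leaving out 1 run. The ratio of Cd209g detection in Cd209f-positive to Cd209f-negative cells (11.2) stayed between 9.59 and 13.9 leaving out 1 run. The Cd209d ratio of cDC2 to Fn1/Ccr2 cells (3.04) was 1.98 with the widened gate. Leaving out each run for the other comparisons was added after the data were seen, and the CD4/CD8-selected macrophages moved most. The causes were not tested. Sparse members, Cd209b above all, are limited by their counts. No paired analysis was possible because the cells carry no sample or replicate number.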
